A study of Homo sapiens with 9 samples.

Results

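Small RNA host transcripts are long non-coding RNAs whose genes carry shorter functional RNAs. The 10 genes described here are MIR22HG, which holds the gene of microRNA 22, and 9 hosts of small nucleolar RNAs (snoRNAs): GAS5, SNHG1, SNHG5, SNHG6, SNHG8, SNHG12, SNHG15, SNHG16 and ZFAS1. They are 10 of the 58734 genes in the count table, and all 10 were among the 16686 genes that passed the filter on low counts. The set was chosen by its measured values in the SIN3A knockdown, where MIR22HG had one of the largest rises, so the SIN3A knockdown against control siRNA is given below as a description with no test.

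Most vertebrate snoRNAs lie in introns and are cut from the introns of their host once these are spliced out. They then guide methylation or pseudouridylation of ribosomal RNA and other RNAs. Many snoRNA hosts, coding and non-coding, begin with a run of pyrimidines (a 5′-terminal oligopyrimidine tract, or TOP) that marks transcripts of the translation machinery. The spliced non-coding hosts contain short reading frames, and several of them, GAS5 foremost, are degraded by nonsense-mediated decay when they are translated. GAS5 was named for its accumulation in growth-arrested cells. MicroRNAs are cut from their primary transcript by DROSHA with DGCR8 and from the hairpin by DICER1, and the mature strand pairs with target mRNAs mainly through its seed, bases 2 to 8.

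The cells were HEK293T, an established line derived from human embryonic kidney and expressing SV40 large T antigen. The groups were SIN3A siRNA, SIN3B siRNA and control siRNA, with 3 libraries each, all taken 36 h after transfection with 10 nM siRNA, and RNA was poly-A selected. SIN3A and SIN3B are related scaffold proteins of a histone deacetylase complex, and the comparison asks which transcripts depend on each. The knockdowns were partial, no replicate is said to be a separate transfection, and p-values therefore rest on a spread between libraries that may be partly or wholly technical.

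Library totals were 22542798 to 27084884 counts. Nearly all counts were multiples of 4, so 3 such steps, or 12 counts, were taken as the floor (0.442 to 0.552 CPM, read counts scaled to a common library size with TMM factors), a limit that covers counting error only. SIN3A averaged 47.3 ± 2.5 CPM (SD, n = 3) in its own knockdown and 146 ± 4.0 CPM in control libraries, and SIN3B 55.1 ± 3.6 CPM in its own knockdown and 96.2 ± 4.7 CPM in control libraries. PAX2, LHX1, EYA1, NEFL, NEFM and VIM, which these cells express, were all detected, and the blood markers PTPRC and CD3E were at 0 counts. ALB (liver), PECAM1 (endothelium) and KRT5 (squamous epithelium) did not exceed 12 counts in any library. The fibroblast markers were detected, so not every marker of another cell type was absent. COL1A1 averaged 31.2 CPM in the SIN3A knockdown, 25.7 in the SIN3B knockdown and 23.8 in control libraries, and COL3A1 1.64, 1.54 and 2.66 CPM. SIN3A knockdown replicate 1 had the highest level of its group in 8 of the 9 snoRNA hosts. Control replicate 3 and SIN3B knockdown replicate 1 each had it in 6 of the 9, and the same share over all genes was not computed. SIN3A knockdown replicate 1 stood apart in the summed level of 32 protein-coding snoRNA hosts, mostly ribosomal protein genes. That sum was 43188 CPM in this library and 37327 and 34213 CPM in the other SIN3A knockdown libraries. It was 36200 to 37165 CPM in the SIN3B knockdown and 36375 to 38041 CPM in control libraries. The part that this library's difference plays in the results below was not tested, and the values without that library are given for each host transcript and for the gene lists.

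MIR22HG (ENSG00000186594) lies on chromosome 17 from 1711493 to 1717174 on the minus strand of GRCh38 (GENCODE 29). The RefSeq sequences of the mature microRNAs it carries (GRCh38.p14, minus strand, chr17:1713914-1713935 for the 3p and chr17:1713952-1713973 for the 5p strand) are shown with the seed in capitals, since a change of the host is of interest for the RNA cut from it:
hsa-miR-22-3p: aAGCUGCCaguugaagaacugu
hsa-miR-22-5p: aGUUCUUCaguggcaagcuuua
They have different seeds. The row of the MIR22 gene itself held 0 counts in all 9 libraries. It overlaps an annotated exon of MIR22HG on the same strand, and how reads shared by both genes were counted is not stated. Mature miR-22 was not measured here, as is usual for poly-A selected libraries.

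The starts of the snoRNA hosts are shown because the TOP tract is the sequence feature they are best known for. RefSeq starts (GRCh38.p14) of 8 of the 10 genes were searched. Each line gives 10 bases before and 30 bases from the RefSeq start site on the transcript's strand, and capitals mark the unbroken pyrimidine run that begins at that site. The windows are chr1:28581844-28581883 for SNHG12, chr6:85678704-85678743 for SNHG5, chr11:62855856-62855895 for SNHG1 and chr1:173869016-173869055 for GAS5 on the minus strand. Those on the plus strand are chr20:49278632-49278671 for ZFAS1, chr4:118278752-118278791 for SNHG8 and chr17:76557754-76557793 for SNHG16:
SNHG12: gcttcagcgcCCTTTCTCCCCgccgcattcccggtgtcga
SNHG5: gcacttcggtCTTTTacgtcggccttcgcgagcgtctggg
ZFAS1: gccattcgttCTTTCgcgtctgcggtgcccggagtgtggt
SNHG1: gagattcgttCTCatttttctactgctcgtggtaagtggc
SNHG8: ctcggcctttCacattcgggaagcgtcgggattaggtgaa
SNHG16: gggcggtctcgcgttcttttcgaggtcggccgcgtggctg
GAS5: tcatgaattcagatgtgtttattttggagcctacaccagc
A C at the start followed by at least 4 pyrimidines was found in 3 of the 8 genes searched (SNHG12, SNHG5 and ZFAS1), in 12 of 25 protein-coding snoRNA hosts and in 4.07% of all 35116 promoters in the table. The match depends on the exact start that RefSeq gives, which varies between transcripts of a host, so a missing tract says only that these letters do not follow this start.

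The 300 bases around the MIR22HG start (chr17:1716161-1716460, minus strand, 250 bases before and 50 from the start) are shown because this was the member with the greatest difference, with CCAAT on either strand in capitals:
MIR22HG: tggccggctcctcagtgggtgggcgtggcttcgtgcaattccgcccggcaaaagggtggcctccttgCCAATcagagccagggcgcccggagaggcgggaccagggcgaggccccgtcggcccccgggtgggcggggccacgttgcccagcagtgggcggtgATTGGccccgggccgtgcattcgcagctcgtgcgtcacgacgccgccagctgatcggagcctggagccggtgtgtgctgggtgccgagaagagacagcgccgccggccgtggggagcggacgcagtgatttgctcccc
CCAAT was searched on both strands and stood 183 bases before the start and, reversed, 88 bases before it. It was found in 3 of the 8 member promoters and in 34.6% of all. The E-box CACGTG, which reads the same on both strands, was found in 0 of the 8 and in 7.26% of all, and the ETS-type core CCGGAA, on either strand, in 2 of the 8 (SNHG8 and SNHG16) and 17.2% of all. No motif overlapped another of those searched in the MIR22HG window. These matches describe the windows and are no evidence of binding.

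MIR22HG was at 2.81 times its control level in the SIN3A knockdown and close to its control level in the SIN3B knockdown. Its level was 11.2, 13.0 and 13.3 CPM in the SIN3A knockdown libraries, 4.29, 4.86 and 5.28 CPM in the SIN3B knockdown and 4.77, 4.70 and 3.86 CPM in control libraries. Every SIN3A knockdown library lay above every other library, and the SIN3B knockdown and control libraries overlapped. In RNA from whole cultures, more cells with a transcript and more of it per cell cannot be told apart. These levels rest on 244 to 340 counts per library in the SIN3A knockdown, 112 to 132 in the SIN3B knockdown and 88 to 120 in control libraries, well above the floor of 12. All of these counts are multiples of 4, so they may stand for fewer reads than their number. The log2 fold change of the SIN3A knockdown over control was 1.49 ± 0.17 (SE, edgeR), and 1.58 without SIN3A knockdown replicate 1. Ranked among called rises with separate groups and a mean over 1 log2 CPM, it was the sixth, between 1.51 for ATOSB and 1.43 for SCN4A. At least 2-fold rises were called in 0.509% of the genes tested in this comparison, which chose the gene.

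In the SIN3B knockdown, a comparison that the choice did not use except for the shared control libraries, the log2 fold change of MIR22HG was 0.11 ± 0.18 (edgeR quasi-likelihood adjusted p = 0.72). Its 95% interval was -0.26 to 0.48, so a change of the size seen in the SIN3A knockdown lies outside it. MIR22HG was higher in the SIN3A than in the SIN3B knockdown by 1.38 ± 0.17 on the log2 scale, a description, since the SIN3A knockdown libraries chose it.

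**Figure D1:**
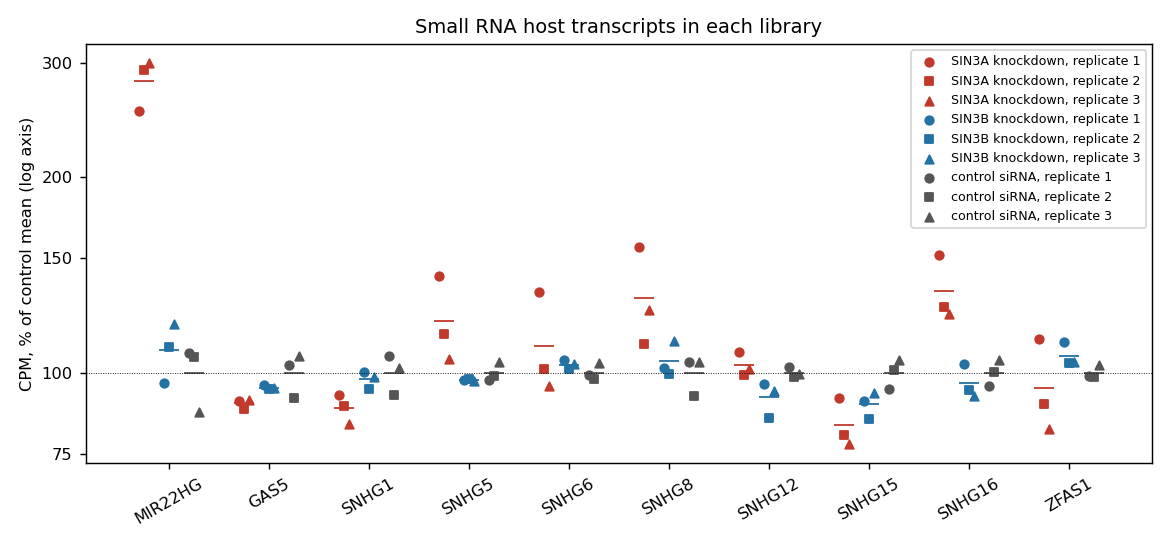
Level of each host transcript in every library as a percentage of its control mean (log axis), with a point per library (circles, squares and triangles are replicates 1, 2 and 3) and a line at the group mean. MIR22HG in the SIN3A knockdown stands far above the rest. Replicate 1 of the SIN3A knockdown (red circles) is the highest of its group in 8 of the 9 snoRNA hosts, and control replicate 3 and SIN3B knockdown replicate 1 in 6 each.

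The neighbours of MIR22HG did not show a difference of that size. WDR81, whose protein acts in endosome maturation and autophagy, starts on the opposite strand and overlaps MIR22HG by 652 bases. It averaged 35.9 ± 2.7 CPM in the SIN3A knockdown, 27.3 ± 0.37 CPM in the SIN3B knockdown and 31.3 ± 5.0 CPM in control libraries (SD, n = 3 each). Its log2 fold changes over control were 0.20 ± 0.11 in the SIN3A knockdown and -0.20 ± 0.12 in the SIN3B knockdown (edgeR adjusted p = 0.25 for SIN3B). TLCD2, which lies 1054 bases downstream on the same strand, averaged 14.1 ± 1.1 CPM in the SIN3A knockdown, 10.8 ± 0.067 CPM in the SIN3B knockdown and 13.2 ± 2.8 CPM in control libraries. Its log2 fold changes were 0.09 ± 0.15 and -0.29 ± 0.15 (edgeR adjusted p = 0.20 for SIN3B). Without control replicate 1, TLCD2 was called in the SIN3B knockdown at -0.45 (edgeR adjusted p = 0.035). WDR81 was higher in the SIN3A than in the SIN3B knockdown by 0.39 ± 0.12 on the log2 scale (edgeR adjusted p = 0.015). The same difference for TLCD2 was 0.38 ± 0.15 (edgeR adjusted p = 0.074). Whether reads were counted by strand is not stated, so the assignment of reads in the stretch shared by MIR22HG and WDR81 is uncertain.

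**Figure D2:**
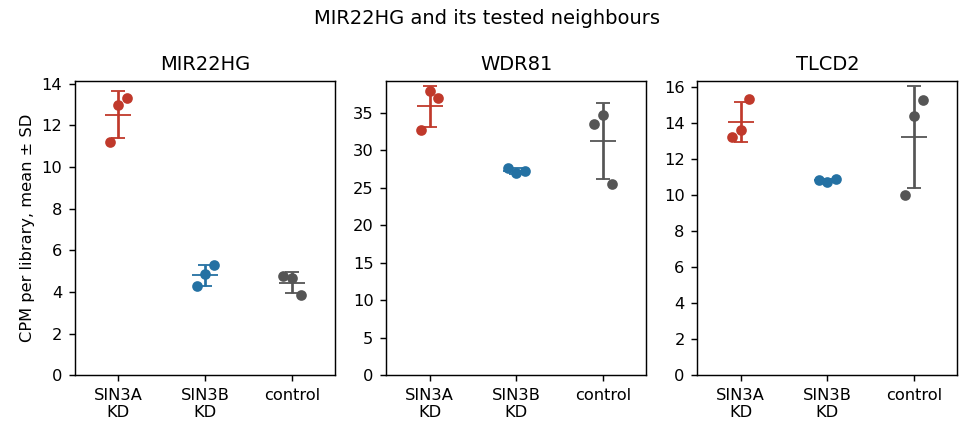
CPM per library (points) with mean and SD (n = 3) of MIR22HG and its 2 tested neighbours within 10 kb, in SIN3A knockdown, SIN3B knockdown and control libraries, each panel from 0. MIR22HG averaged 12.5 CPM in the SIN3A knockdown and 4.44 CPM in control libraries, while the SIN3A knockdown and control libraries of WDR81 and TLCD2 overlapped.

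The genes whose profile over the 9 libraries was nearest to that of MIR22HG were sought among 12805 genes above 1 log2 CPM. The measure was the root mean square difference of log2 CPM after centring, and its median over all these genes was 0.70. HECTD3, a ubiquitin ligase, was nearest at 0.17, followed by CCDC191 at 0.20, LRRC3 at 0.22, DENND1C, a DENN domain protein, at 0.23 and TRIM62, a tripartite motif ubiquitin ligase, at 0.24. HECTD3 averaged 139 ± 5.1 CPM in the SIN3A knockdown, 65.8 ± 1.5 CPM in the SIN3B knockdown and 59.0 ± 3.6 CPM in control libraries.

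Set against each other per length, the snoRNA hosts differed widely in level, and MIR22HG was the lowest of the 10. In control libraries, levels in CPM per kb of annotated exon were 71.6 ± 5.5 for GAS5 and 68.7 ± 4.8 for SNHG1 (SD, n = 3), whose libraries overlapped. SNHG8 followed at 39.8 ± 2.7 CPM per kb and SNHG5 at 31.7 ± 1.1. SNHG16 at 23.8 ± 1.1 and SNHG6 at 23.0 ± 0.69 overlapped each other. SNHG15 was at 16.2 ± 0.84, SNHG12 at 11.7 ± 0.20, ZFAS1 at 9.98 ± 0.24 and MIR22HG at 1.49 ± 0.17 CPM per kb. Neighbours in this order other than those 2 pairs did not overlap between libraries. In the SIN3A knockdown, the level of MIR22HG was 4.19 ± 0.38 CPM per kb, still under every snoRNA host. The exon length sums all annotated exons of a gene, and an isoform in use may be shorter.

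In the SIN3B knockdown, none of the 10 host transcripts passed the test. By edgeR 0 of 10 rose and 0 fell, 0 had an unadjusted p under 0.05, and DESeq2 also called 0, beside 12% of all genes tested that rose and 11.6% that fell in this comparison. The median log2 fold change of the 10 was -0.04, beside -0.02 over all genes, and the values lay between -0.16 for SNHG15 and 0.11 for MIR22HG. SNHG15 averaged 52.9 ± 2.5 CPM in the SIN3B knockdown and 59.2 ± 3.1 CPM in control libraries (SD, n = 3 each). Its log2 fold change of -0.16 ± 0.09 had the lowest adjusted p of the 10 (edgeR adjusted p = 0.22), with a 95% interval of -0.35 to 0.03.

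SNHG16 was near its control level in the SIN3B knockdown, at -0.05 ± 0.08 (95% interval -0.23 to 0.12, edgeR adjusted p = 0.73). GAS5 was at -0.08 ± 0.07 (95% interval -0.22 to 0.07) and SNHG1 at -0.03 ± 0.07 (-0.18 to 0.11). SNHG15 and SNHG12 lay below control in all SIN3B knockdown libraries and ZFAS1 above, 2 and 1 of 10, beside 22.1% and 20.9% of all genes tested. SNHG12 was at 47.7, 42.3 and 46.6 CPM in the SIN3B knockdown libraries and 50.7, 49.0 and 49.5 CPM in control libraries, a log2 difference of -0.13 ± 0.09 (edgeR adjusted p = 0.33). ZFAS1 was at 24.9, 23.1 and 23.2 CPM in the SIN3B knockdown and 22.1, 22.1 and 23.0 CPM in control libraries, a log2 difference of 0.09 ± 0.12 (edgeR adjusted p = 0.68). None of the 3 passed the test, and the intervals of all 10 reach 0; a p above the threshold does not show that levels were equal.

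In the SIN3A knockdown, the snoRNA hosts went in different directions. SNHG16, SNHG8 and SNHG5 were higher than in control libraries, SNHG15, SNHG1 and GAS5 lower, and SNHG6, SNHG12 and ZFAS1 near the control level with all libraries (SNHG12 at 0.04 with TMM and -0.03 with upper-quartile factors). ZFAS1 was lower, at -0.21, without SIN3A knockdown replicate 1. Counting MIR22HG, 4 of 10 passed the threshold upwards and 1 downwards, beside 12% and 10.8% of all genes tested, and without SIN3A knockdown replicate 1 the counts were 2 and 2. With upper-quartile scaling they were 2 and 3, where the median of all genes tested was at -0.07. Control and SIN3A knockdown libraries did not overlap in 4 of the 10 upwards and 2 downwards, beside 17.9% and 18.5% of all genes. This comparison chose the set, and nothing is read from these counts.

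SNHG16, the host of SNORD1A, SNORD1B and SNORD1C (chromosome 17, 76557766 to 76565348, plus strand), was the snoRNA host that stood furthest above control. It was at 194, 161 and 157 CPM in the SIN3A knockdown libraries, 132, 120 and 118 CPM in the SIN3B knockdown and 122, 128 and 134 CPM in control libraries. All SIN3A knockdown libraries lay above all others, with replicate 1 the highest. Its log2 fold change over control was 0.42 ± 0.08 (133.7% of the control mean), and 0.34 without SIN3A knockdown replicate 1.

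SNHG8, the host of SNORA24, was at 57.2, 40.5 and 45.8 CPM in the SIN3A knockdown libraries, 37.3, 36.6 and 41.0 CPM in the SIN3B knockdown and 38.1, 33.8 and 38.1 CPM in control libraries. The SIN3A knockdown libraries lay above the control libraries and overlapped those of the SIN3B knockdown. Its log2 fold change over control was 0.38 ± 0.11, and 0.25 without SIN3A knockdown replicate 1. SNHG5, the host of SNORD50B, was at 125, 102 and 93.4 CPM in the SIN3A knockdown, 86.6, 87.0 and 86.3 CPM in the SIN3B knockdown and 86.6, 88.0 and 92.5 CPM in control libraries. The lowest SIN3A knockdown library was only just above the highest control library. Its log2 fold change was 0.26 ± 0.09, and 0.15 without replicate 1.

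SNHG15, the host of SNORA9, was at 54.1, 47.4 and 45.9 CPM in the SIN3A knockdown libraries, against 55.9, 59.6 and 62.0 CPM in control libraries. The groups did not overlap, and replicate 1 lay closest to control. Its log2 fold change was -0.27 ± 0.09, and -0.33 without replicate 1. GAS5 was at 235, 229 and 236 CPM in the SIN3A knockdown, 248, 245 and 246 CPM in the SIN3B knockdown and 267, 237 and 276 CPM in control libraries. Its SIN3A knockdown libraries lay just below the lowest control library, and its log2 fold change was -0.16 ± 0.07, and -0.14 without replicate 1.

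SNHG1, which holds the genes of SNORD22 and SNORD25 to SNORD28 among others, was at 238, 229 and 215 CPM in the SIN3A knockdown and 273, 238 and 263 CPM in control libraries. These groups overlapped, and the log2 fold change was -0.18 ± 0.07, and -0.20 without replicate 1. SNHG6, the host of SNORD87, had a log2 fold change of 0.13 ± 0.12 in the SIN3A knockdown. It was at 38.2, 29.1 and 27.4 CPM in the SIN3A knockdown and 28.0 to 29.7 CPM in control libraries. Only replicate 1 lay above every control library, and without it the fold change was -0.0051. SNHG12 was at 0.04 ± 0.09, and 0.02 without replicate 1. ZFAS1 was at -0.08 ± 0.12, but at -0.21 without replicate 1 and 0.01 without replicate 3. ZFAS1, the host of SNORD12, ranged from 18.3 to 25.2 CPM within the SIN3A knockdown, wider than its range of 22.1 to 23.0 CPM in control libraries.

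**Figure D3:**
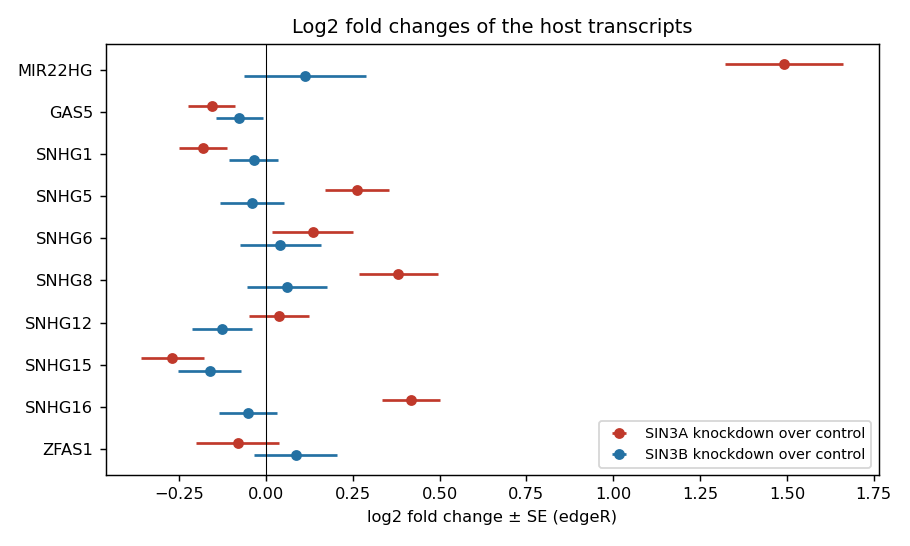
Log2 fold change with its SE (edgeR, all 9 libraries) of each host transcript in the SIN3A knockdown (red) and the SIN3B knockdown (blue) over control siRNA. MIR22HG is at 1.49 in the SIN3A knockdown, the 9 snoRNA hosts lie between -0.27 and 0.42 there, and all 10 lie between -0.16 and 0.11 in the SIN3B knockdown.

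The summed level of the 9 snoRNA hosts differed little between the groups. It was 939 ± 72 CPM in the SIN3A knockdown, 898 ± 21 CPM in the SIN3B knockdown and 931 ± 43 CPM in control libraries (SD, n = 3 each), so the group means differ by less than the spread of the SIN3A knockdown libraries. The SIN3A knockdown libraries other than replicate 1 were at 908 and 889 CPM, against 884 to 967 CPM in control libraries. Both knockdowns were set against the same control libraries, so their values are given side by side only.

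The direct comparison of the knockdowns was tested for the 9 snoRNA hosts. It uses the SIN3A knockdown libraries by which the set was chosen, so its p-values are not independent of that choice. By edgeR 3 of the 9 were higher in the SIN3A than in the SIN3B knockdown and 0 lower, beside 14.4% and 12.6% of all genes tested (27.1% in either direction). Of the 9, 3 had an unadjusted p under 0.05 and DESeq2 called 3. Libraries did not overlap in 3 upwards (SNHG5, SNHG12 and SNHG16) and 2 downwards (GAS5 and SNHG1), beside 19.8% and 19.5% of all genes (39.3% in either direction). Their median log2 fold change was 0.09, beside -0.02 over all genes. SNHG16 was higher by 0.47 ± 0.08 on the log2 scale (edgeR adjusted p = 0.00032). It remained called in each of the 17 other settings, at 0.38 to 0.53 (adjusted p of 2.3e-07 to 0.0050), and at 0.38 (edgeR adjusted p = 0.000345) without SIN3A knockdown replicate 1.

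The other calls were lost when single libraries were left out. SNHG5 was higher by 0.30 ± 0.09 (edgeR adjusted p = 0.018), but at 0.18 (adjusted p = 0.059) without SIN3A knockdown replicate 1, 0.31 (0.060) without SIN3B knockdown replicate 2 and 0.30 (0.065) without SIN3B knockdown replicate 3. SNHG8 was higher by 0.32 ± 0.11 (edgeR adjusted p = 0.043). It was at 0.18 (adjusted p = 0.21) without SIN3A knockdown replicate 1, and was also lost without control replicates 1 and 3 (0.061 and 0.053) and without SIN3B knockdown replicates 1, 2 and 3 (0.11, 0.15 and 0.061). With upper-quartile scaling its adjusted p was 0.065, and 0.068 with only the 6 libraries compared. SNHG1 was at -0.15 ± 0.07 (edgeR adjusted p = 0.14) and passed, at -0.17 (adjusted p = 0.048), without SIN3A knockdown replicate 1.

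The rows of the snoRNA genes themselves held few counts. Of 23 rows for small RNA genes inside the 10 hosts (22 of them snoRNAs), 19 had 0 counts in every library. The highest was SNORD99, in SNHG12, with 28 to 36 counts in the SIN3A knockdown libraries, 24 to 44 in the SIN3B knockdown and 32 to 40 in control libraries, so the groups overlapped. Most rows at 0 counts overlap an annotated exon of their host on the same strand. How reads shared by a host and a small RNA gene were counted is not stated, so these rows do not show that the small RNAs were absent. SNORD99, SNORD12B and SNORD12C lie outside host exons and had counts, SNORD1B lies outside and had none, and SNORD30 overlaps an exon and had counts. The levels above are those of the polyadenylated hosts and say nothing of the snoRNAs.

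Genes that lie beside the snoRNA hosts were read in the same fit. ZBTB37, which overlaps the start of GAS5 on the other strand, was at 0.33 ± 0.12 in the SIN3A and 0.29 ± 0.12 in the SIN3B knockdown (edgeR adjusted p = 0.10 for SIN3B, and 0.026 without control replicate 1).

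PRSS12, a secreted protease 214 bases from SNHG8, fell in the SIN3B knockdown by 0.52 ± 0.14 (edgeR adjusted p = 0.0094), to 10.0 ± 1.3 CPM, against 14.3 ± 0.86 CPM in control libraries. Without SIN3B knockdown replicate 2 its adjusted p was 0.058. TRNAU1AP, which acts in selenocysteine incorporation and overlaps the end of SNHG12 by 8 bases, was at -0.31 ± 0.11 in the SIN3A and 0.06 ± 0.10 in the SIN3B knockdown, and TAF12, a TFIID subunit, at 0.05 ± 0.10 and -0.12 ± 0.10 (edgeR adjusted p = 0.75 and 0.47 for SIN3B). SLC3A2, an amino acid transporter subunit 187 bases from SNHG1, averaged 249 ± 26 CPM in the SIN3A knockdown, 252 ± 7.8 CPM in the SIN3B knockdown and 252 ± 7.6 CPM in control libraries. ZNFX1, whose start overlaps ZFAS1, was at 0.10 ± 0.10 in the SIN3A knockdown and 0.13 ± 0.10 in the SIN3B knockdown (edgeR adjusted p = 0.43 for SIN3B).

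The counts for the gene lists that follow are to be read against all genes tested, of which 12% rose and 11.6% fell in the SIN3B knockdown, and 12% passed upwards and 10.8% downwards in the SIN3A knockdown. No list was tested as a group. Of 15 further non-coding snoRNA hosts tested, 0 rose and 1 fell in the SIN3B knockdown, and the median was -0.09 on the log2 scale. The counts were 0 and 2 without SIN3A knockdown replicate 1, and 0 and 3, with a median of -0.12, with upper-quartile factors. The 1 that fell with all libraries and TMM factors was SNHG3, at -0.28 ± 0.07 (edgeR adjusted p = 0.0073). For SIN3A siRNA 2 passed upwards and 2 downwards, with a median of 0.02 (2 and 1, with a median of -0.01, without its replicate 1, and a median of -0.05 with upper-quartile factors), and the highest was SNHG19 at 0.66 ± 0.19.

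Of 32 protein-coding snoRNA hosts, 1 rose and 1 fell in the SIN3B knockdown, with a median of -0.04. Without SIN3A knockdown replicate 1, whose spread enters the same fit, 3 rose and 8 fell, with a median of -0.03. With upper-quartile factors 1 rose and 2 fell in the SIN3B knockdown, with a median of -0.08. EIF4G2, a translation initiation factor, averaged 1260 ± 44 CPM in the SIN3B knockdown and 928 ± 41 CPM in control libraries (0.44 ± 0.06, edgeR adjusted p = 3e-05). EIF4A1, an initiation helicase, fell by 0.79 ± 0.16 (edgeR adjusted p = 0.0011), to 6.75 ± 0.71 CPM, against 11.7 ± 1.4 CPM in control libraries. Its level is uncertain, since the annotated read-through gene SENP3-EIF4A1 shares its exons. For SIN3A siRNA 0 of the 32 passed upwards and 4 downwards, with a median of 0.05. Without its replicate 1 these were 1 and 5, with a median of -0.04, and with upper-quartile factors the median was -0.02. HSPA8 was highest at 0.17 ± 0.06 and PPAN lowest at -0.52 ± 0.18 (-0.33 without control replicate 3). PPAN rested on 120 to 268 counts per library, and whether another gene shares its exons was not looked up. Among all genes above 1 log2 CPM, 2 of the 5 whose profile was nearest to the mean of the 9 snoRNA hosts were of this list, RPSA at 0.033 and RPS3 at 0.037 (median 0.23 over all genes). The others were DDB2, HINT1 and PTMA. All 5 were highest in SIN3A knockdown replicate 1, and nearness without that library was not computed. The mean profile of the 9 hosts was nearly flat (SD 0.090 over the 9 libraries, against 0.72 for MIR22HG). It averages hosts that went in different directions, so a gene near it need not resemble any given host.

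Of 10 other microRNA hosts tested, 0 rose and 3 fell in the SIN3B knockdown, and 1 passed upwards and 2 downwards in the SIN3A knockdown, with medians of -0.16 and -0.20. Without SIN3A knockdown replicate 1 the counts were 0 and 4 in the SIN3B knockdown and 1 and 2 in the SIN3A knockdown. MIR222HG, the host of the miR-221 and miR-222 pair, averaged 36.0 ± 3.9 CPM in the SIN3A knockdown, 36.4 ± 2.0 CPM in the SIN3B knockdown and 62.1 ± 4.0 CPM in control libraries. Its log2 fold changes were -0.78 ± 0.10 in the SIN3A and -0.77 ± 0.10 in the SIN3B knockdown (edgeR adjusted p = 2e-05 for SIN3B). MIR503HG was at -0.69 ± 0.11 in the SIN3A and -0.62 ± 0.11 in the SIN3B knockdown (edgeR adjusted p = 0.00031 for SIN3B).

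MIR210HG, the host of the hypoxia-induced miR-210, averaged 8.69 ± 2.1 CPM in the SIN3B knockdown and 14.1 ± 2.5 CPM in control libraries (-0.70 ± 0.18, edgeR adjusted p = 0.0065). Without SIN3B knockdown replicate 2 it was at -0.52 (adjusted p = 0.052). The one that passed upwards in the SIN3A knockdown was MIR34AHG, the host of the p53-induced miR-34a, at 0.50 ± 0.11 there and 0.26 ± 0.12 in the SIN3B knockdown (edgeR adjusted p = 0.12 for SIN3B).

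Of 16 snoRNP proteins and assembly factors, 4 rose and 1 fell in the SIN3B knockdown, with a median of 0.05 (4 and 2 without SIN3A knockdown replicate 1). ZNHIT6, an assembly factor of box C/D snoRNPs, averaged 100 ± 4.4 CPM in the SIN3B knockdown and 65.8 ± 6.7 CPM in control libraries (0.61 ± 0.09, edgeR adjusted p = 5.6e-05). GAR1, a core protein of box H/ACA snoRNPs, rose by 0.76 ± 0.12 (edgeR adjusted p = 0.00021), and the assembly ATPase RUVBL1 fell by 0.33 ± 0.08 (edgeR adjusted p = 0.0046). Under SIN3A siRNA 1 passed upwards and 2 downwards (1 and 3 without its replicate 1), from SHQ1, an H/ACA assembly factor, at 0.48 ± 0.09 to FBL, the box C/D methyltransferase fibrillarin, at -0.37 ± 0.08. NOP56, at -0.17 ± 0.06, is in this list and in that of the protein-coding hosts, and counts among the downward passes of both.

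Of 13 genes of microRNA processing and silencing, 5 rose and 2 fell in the SIN3B knockdown, with a median of 0.10. The counts were 5 and 2 also without SIN3A knockdown replicate 1, and 4 and 2 with upper-quartile factors. TNRC6B and TNRC6A, partners of Argonaute proteins, rose by 0.59 ± 0.08 and 0.44 ± 0.07 (edgeR adjusted p = 4.4e-05 and 0.00023). DICER1 averaged 97.4 ± 14 CPM in the SIN3A knockdown, 123 ± 14 CPM in the SIN3B knockdown and 79.3 ± 4.3 CPM in control libraries, and its log2 fold change was 0.30 ± 0.10 in the SIN3A and 0.63 ± 0.10 in the SIN3B knockdown (edgeR adjusted p = 0.00017 for SIN3B). Under SIN3A siRNA 2 of the 13 passed upwards and 0 downwards, 4 and 0 without its replicate 1, and 0 and 0 with upper-quartile factors. TNRC6C was the highest there at 0.30 ± 0.12 and AGO2 the lowest at -0.20 ± 0.11. Without SIN3A knockdown replicate 1 they were at 0.46 and -0.02, and AGO2 was at -0.34 without replicate 3.

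Of 18 factors of nonsense-mediated decay and its exon junction complex, 5 rose and 1 fell in the SIN3B knockdown, with a median of 0.15. The counts were 7 and 2 without SIN3A knockdown replicate 1, and 4 and 2 with upper-quartile factors. MAGOHB and MAGOH, junction complex subunits, rose by 0.67 ± 0.11 and 0.44 ± 0.08 (edgeR adjusted p = 0.00022 and 0.00060). Under SIN3A siRNA 4 passed upwards and 3 downwards, with a median of 0.03 (3 and 3 without its replicate 1, and 1 and 3, with a median of -0.04, with upper-quartile factors). The decapping enzyme DCP2 was highest there at 0.44 ± 0.10 and SMG9, a partner of the kinase SMG1, lowest at -0.52 ± 0.09.

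**Figure D4:**
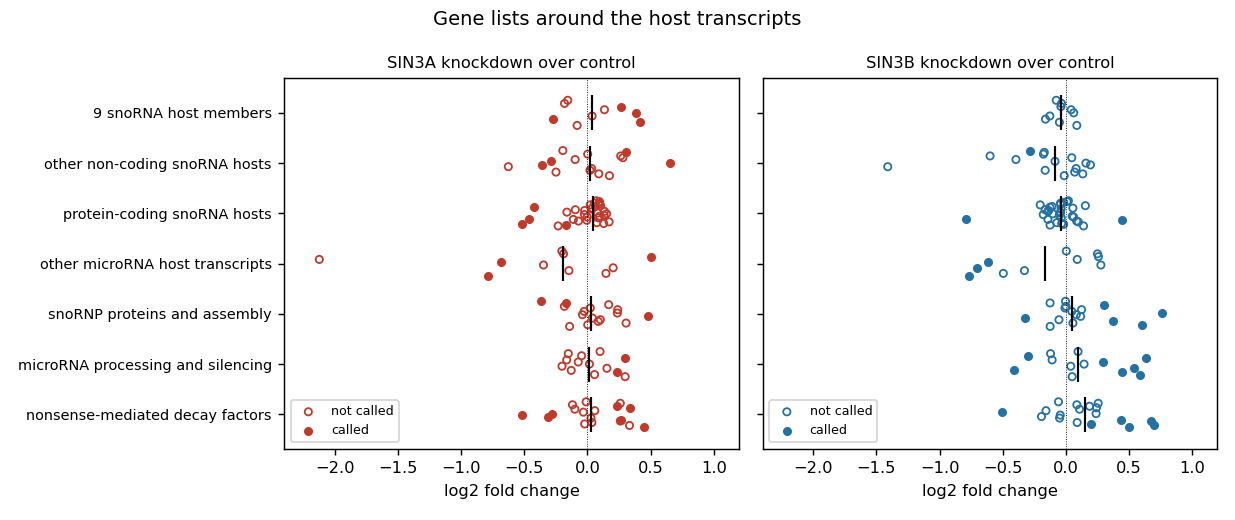
Log2 fold change over control of each tested gene of 6 lists and of the 9 snoRNA hosts, in the SIN3A knockdown (left) and the SIN3B knockdown (right). Filled points passed the edgeR threshold, black bars are list medians, and every list median lies between -0.20 and 0.15.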

How the data were processed

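The authors deposited whole-number counts per Ensembl gene, and the submitters' processing notes name Trimmomatic 0.36, HISAT2 2.1.0, HTSeq, DESeq2 1.20.0 and GRCh38. The FPKM values that the authors deposited were not used here. Per the labels, libraries were poly-A selected and stranded. The strand setting and annotation of the counting are not given in the sources used here. All IDs matched GENCODE 29.

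Counts were fitted as deposited in edgeR 4.0.16 (R 4.3.3): TMM factors, filterByExpr (minimum count 10, minimum total 15) and the quasi-likelihood test over 9 libraries with 6 residual degrees of freedom. P-values are two-sided and Benjamini-Hochberg adjusted over all genes tested, with a threshold of 0.05. The script was tested on simulated data with the same spread for every gene, which checks the code and not how well the fit suits these libraries. Groups came from the titles. Same-numbered libraries are not said to be paired.

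The members and gene lists were chosen with earlier results of these data known. Named were the members, their tested neighbours within 10 kb, the 3 genes per list with the lowest adjusted p among those called in the SIN3B knockdown, the highest and lowest per list in the SIN3A knockdown and the 5 nearest profiles. NOP56 is named because the protein-coding host and snoRNP lists share it. Genes near the floor of 3 steps, such as MIRLET7BHG, SNHG25, CYGB, MYO1G, GAS5-AS1 and an unnamed gene beside SNHG16, are left out. A few genes that the rule names are not reported here. Alternatives were RLE and upper-quartile factors, no filter, DESeq2 1.42.0, fits of 6 libraries, a replicate block, counts divided by 4, leaving out each library and, chosen after seeing the data, a robust spread estimate. Figures used matplotlib 3.10.9.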

Additional observations from a re-analysis of the deposited data

How the results depend on the processing

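Each result was recomputed under 17 other settings. No member was called in the SIN3B knockdown in any of them, and SNHG16 kept its call between the knockdowns in all. In the SIN3A knockdown, 4 members passed upwards and 1 downwards. With upper-quartile factors 2 passed upwards and 3 downwards, downward counts were 2 with DESeq2, 2 with counts divided by 4, 0 with only the 6 libraries and 0 with the replicate block, and leaving out 1 library gave 2 to 4 upwards and 0 to 2 downwards. Between the knockdowns, leaving out 1 library gave 1 to 3 hosts higher and 0 to 1 lower. Over all genes, leaving out 1 library gave 1291 to 2295 rises (1997 with all) and 1172 to 1719 falls (1794 with all) in the SIN3A knockdown, and 1298 to 2442 rises (2005) and 1280 to 2276 falls (1929) in the SIN3B knockdown. The lowest counts came without control replicate 2, control replicate 3 and SIN3B knockdown replicate 2. With upper-quartile factors the splits were 1340 rises and 2298 falls (SIN3A) and 1688 and 2282 (SIN3B). The cause of these shifts was not tested. Among the members, signs turned in the SIN3A knockdown for SNHG6 (-0.0051 without its replicate 1), ZFAS1 (0.015 without its replicate 3) and SNHG12 (-0.03 with upper-quartile factors). They also turned for 3 uncalled member values of the other comparisons. Some neighbours and list genes near their control level turned as well, such as TLCD2 and SLC3A2 in the SIN3A knockdown and TRNAU1AP in the SIN3B knockdown. Over all settings that leave out 1 library, SNHG1 lay between -0.10 and 0.0082 in the SIN3B knockdown (highest without control replicate 1), SNHG8 between -0.0069 and 0.095 there (lowest without control replicate 2), and SNHG6 between -0.054 and 0.19 between the knockdowns (lowest without SIN3A knockdown replicate 1). Same-numbered libraries did not deviate together (correlations of -0.027 to 0.036). Such correlations cannot show whether libraries of the same number were handled together. The replicate block gave 3 upward members in the SIN3A knockdown, 0 in the SIN3B knockdown and 3 hosts higher between the knockdowns. At 88 to 340 counts, MIR22HG is the member measured with the least precision.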
